A study of Mus musculus with 33 samples.

Results

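Immature neutrophils of mouse tissues were followed here as cells rich in Ltf and Ngp transcripts and free of dividing-cell transcripts. A cell was counted when it met the quality limits (500 or more gene UMIs, that is unique molecules, 200 or more genes, mitochondrial UMIs up to 15%) and had 5 or more UMIs each of Ltf and Ngp, 0 of Mki67 and Top2a, and fewer than 5 of Il1b. This rule took 3700 cells, called Ltf Ngp neutrophils below, out of 55366 cells that passed the same quality filters and 57065 deposited barcodes. Because Ltf, Ngp, Mki67, Top2a and Il1b chose the cells, their levels are given as a description with no test.

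Neutrophils fill their granules in sequence as they mature in bone marrow. Promyelocytes make azurophil granule proteases such as Elane and Mpo, myelocytes and metamyelocytes make the specific granule proteins Ltf (lactoferrin, an iron binder), Ngp (neutrophilic granule protein), Camp (the cathelicidin precursor) and Lcn2 (a siderophore binder), and later stages add gelatinases and the chemokine receptor Cxcr2. Cells of the Ltf stage normally stay in marrow, held there by Cxcr4, and are released early when demand is high.

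The samples came from SAMENT, in which an enzyme on tumour cells attaches biotin to neighbouring cells, so that a sort separates tagged from untagged cells. Mice received an intracardiac injection, and after roughly 10 hours of labelling with the substrate, bone (femurs and tibias), brain, liver and lung were each split by a sort for biotin. Each of the 8 groups had 4 samples, which had been multiplexed with CellPlex tags. The labels name no tumour line, strain, sex or age, and no source says whether same-numbered samples came from the same animal, so spread between samples is all that the p-values measure.

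Kept cells per sample held 482617 to 44834665 gene UMIs in all, and the median cell of a sample held 2606 to 11313.5. Ltf Ngp neutrophils were deep cells, with a median of 10870.5 UMIs and 1813 genes. Of 56724 distinct barcodes, 341 occurred in more than 1 library. The 112 pairs of libraries with the same replicate number shared none, whereas 188 of 384 pairs with different numbers shared at least 1 and at most 7. The tag sets listed in the feature files also went by replicate number, with 1 set for replicate 1, another for replicate 2 and a common set for replicates 3 and 4.

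The promoters of the genes behind the rule are shown because every later value rests on cells picked by them. Ltf, Ngp and Camp all lie on chromosome 9. The 150 bases before each RefSeq start site (GRCm38.p6) are printed 5′ to 3′ on the strand of the gene, at chr9:111019142-111019291 on the plus strand for Ltf and chr9:110419658-110419807 on the plus strand for Ngp. Capitals mark matches to TTNNGNAA on either strand, a short form of the site of C/EBP factors, which drive granule genes.
Ltf: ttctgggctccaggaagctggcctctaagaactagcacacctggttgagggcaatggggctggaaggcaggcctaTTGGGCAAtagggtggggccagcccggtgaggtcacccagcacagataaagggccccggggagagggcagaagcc
Ngp: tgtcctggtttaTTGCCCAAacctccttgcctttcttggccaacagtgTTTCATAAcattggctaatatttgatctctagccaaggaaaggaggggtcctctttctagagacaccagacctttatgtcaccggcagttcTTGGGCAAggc
The match in Ltf began 75 bases before the start, and those in Ngp began 138, 102 and 11 bases before it. Such short matches are common, since 40.7% of 32851 RefSeq promoters of 300 bases held at least 1.

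The label was checked against markers the rule did not use. In biotin negative bone, Camp stood at 24819 ± 3885 CPM (UMIs scaled to a total of 1000000 per sample; SD, n = 4) in Ltf Ngp neutrophils, Lcn2 at 20124 ± 1846 and Cd177, a surface glycoprotein of neutrophils, at 1168 ± 28.1. Elane and Mpo, markers of the earlier azurophil stage, were at 13.0 ± 12.6 and 14.5 ± 18.2 CPM. These levels place the cells after the Elane stage, although 3 of 3700 cells had no Camp UMI and 13 had no Cd177 UMI.

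A pair of neighbouring classes, cut with genes of the same cells, framed these values without a test. The 2418 cells that met the Ltf and Ngp minimums but held Mki67 or Top2a had more Camp (40164 CPM), Chil3 (8034 against 4967) and Fcnb, an early ficolin (593 against 69.2). The 14793 cells with at least 5 UMIs of Retnlg and S100a8 but fewer of Ltf or Ngp had less Camp (1343 CPM) and Lcn2 (6218). The resistin-like gene Retnlg, a late marker, stood at 1447 CPM in the dividing class and 13915 in Ltf Ngp neutrophils, and its 34698 CPM in the last class was fixed by the choice of those cells. The gelatinase Mmp8 stood at 216, 2056 and 2501 CPM in the dividing class, Ltf Ngp neutrophils and the Retnlg class. The chemokine receptor Cxcr2 stood at 109, 360 and 840 CPM in the same order. The last class was not purely late, since its Elane level reached 1199 CPM on average in bone.

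**Figure D1:**
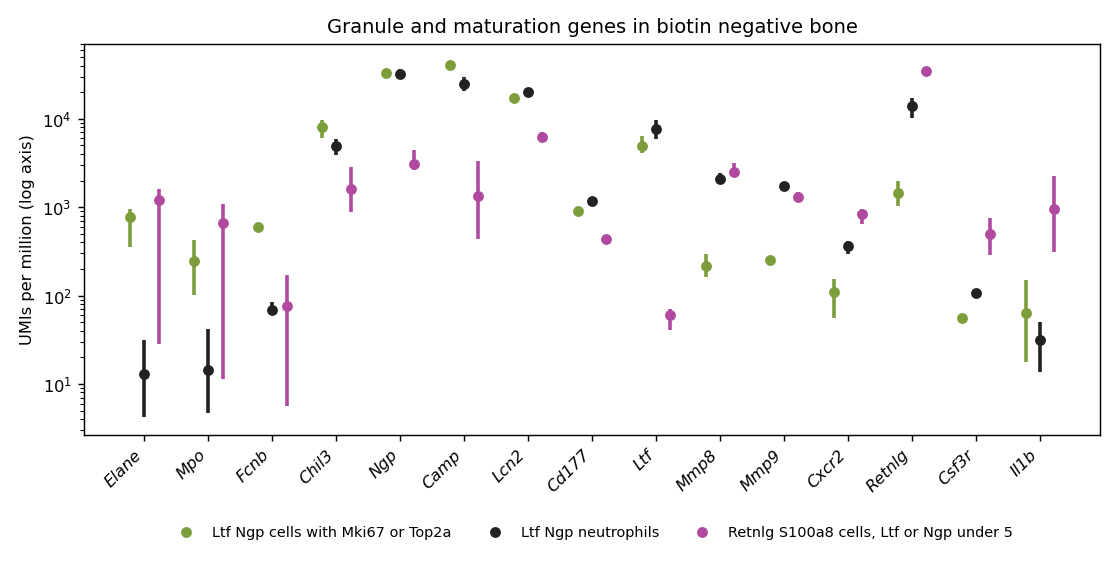
Mean CPM (log axis) in biotin negative bone for 15 granule and maturation genes in 3 classes of cells; points are means of 4 samples and lines run from the lowest to the highest sample. Ltf Ngp neutrophils combine Camp near 24819 with Retnlg near 13915, whereas Elane and Mpo stay under 50.

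After every cell was thinned to 2000 UMIs, which 3666 of the 3700 cells reached, Camp was seen in 98.5% of Ltf Ngp neutrophils, Mmp9 in 89.4%, Cd177 in 88.8% and Cxcr2 in 46.5%. In the 26216 thinned cells that were not granulocytes the same shares were 17.0%, 3.6%, 5.1% and 1.9%. The neighbouring classes shared these genes, with Camp in 99.8% and Cd177 in 82.3% of the dividing class, and Mmp9 in 78.9% and Cxcr2 in 79.0% of the Retnlg class. Unthinned, Camp was seen in 99.9% of Ltf Ngp neutrophils and Cxcr2 in 89.2%. The transcription factor Cebpe, which is needed for specific granules, was seen in 26.8% after thinning, against 56.1% of the dividing class and 3.0% of the Retnlg class.

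The most abundant transcripts were those of the calprotectin subunits S100a9 (199803 ± 14198 CPM, n = 22 samples) and S100a8 (187435 ± 32692), which together took 27.0% to 44.2% of a sample's UMIs. Ngp (30729 ± 3255), Camp (20642 ± 5903) and Lcn2 (18522 ± 2567) followed, then Tmsb4x and Retnlg (14457 ± 4205). Ltf ranked 11th at 7095 ± 1454. UMI counts were not divided by gene length.

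The cells were graded among themselves, not uniform. Camp ranged from 18 UMIs per cell at the 10th percentile through a median of 187 to 633 at the 90th, and Ltf from 12 through 73 to 175. Within each of the 10 samples with at least 100 such cells, Camp and Retnlg ran opposite to each other, with a Spearman rho of -0.80 to -0.66 across cells. Camp went with Chil3 (0.62 to 0.82), and Retnlg with the gelatinase gene Mmp8 (0.54 to 0.74). Cd177 had weak correlations, at -0.24 to 0.09 with Camp, -0.02 to 0.12 with Retnlg, 0.04 to 0.26 with Cxcr2, 0.08 to 0.36 with Mmp8, 0.12 to 0.31 with Mmp9 and 0.08 to 0.28 with Ltf. Cells of a sample share their library, and CPM of abundant genes constrain each other, so these correlations describe the cells only. At the edge of the rule, the 82 cells with 4 Ltf UMIs that met all other criteria held Camp at 1335 CPM, close to the 1627 CPM of the 72 cells with 5.

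Ltf Ngp neutrophils were most frequent in bone on average, followed by brain, liver and lung. They made up 16.8% ± 7.39 (SD, n = 4) of kept cells in biotin negative bone. The same sort of brain held 7.28% ± 7.05, that of liver 2.64% ± 2.68 and that of lung 0.427% ± 0.278. The 4 bone samples stood at 6.28% (95% Wilson interval 5.46 to 7.21), 20.8%, 17.4% and 22.9% for replicates 1 to 4, and the 12 other negative samples between 0.0450% and 16.9%. Bone replicate 1 therefore lay below brain replicates 1 (8.01%) and 4 (16.9%), and the other 3 bone samples lay above all others. Bone exceeded the other tissues by 13.4 percentage points (two-sided exact permutation p = 0.0044 over 1820 assignments, 4 samples against 12). Bone lay above the mean of the other tissues in 4 of 4 replicate numbers and was the highest tissue in 3. With the tissues permuted within replicate numbers, an alternative added after seeing the data, the exact p was 0.00781 over 256 assignments. Exact sign flips over the 4 numbers gave p = 0.125, the smallest they can give. With each cell thinned to 1000 UMIs the difference was 10.7 points (exact p = 0.0066), and among granulocytes alone, as defined below, it was 18.9 points (exact p = 0.0099).

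As a check on free RNA, T cells (with UMIs of Cd3e and Trac) and B cells (at least 2 UMIs each of Cd79a and Cd79b), which do not make these proteins, met the same rule in 0.968% of 1549 cells from bone and 0.586% of 1194 from brain. The shares were 0.125% of 1594 such cells from liver and 0.0910% of 2197 from lung. They were shallower, with median UMIs per sample of 1579 to 8503.5. Brain positive replicate 2 (1 cell, 0.148%, Wilson interval 0.0262 to 0.834) and lung negative replicate 3 (1 cell, 0.0450%, 0.00794 to 0.254) were no higher than this background. In lung positive replicate 3 the count was 0 of 1217 cells, which allows a share of up to 0.247%. Intervals and such limits cover counting error only.

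In brain and liver the samples parted by replicate number. Replicates 1 and 4 exceeded replicates 2 and 3 in both sorts of both tissues, with 8.01% and 16.9% against 2.88% and 1.28% in negative brain, and 3.74% and 5.91% against 0.642% and 0.257% in negative liver. Set against granulocytes alone (cells with at least 1% of UMIs from S100a8 and S100a9), negative brain held 26.4% and 27.4% in replicates 1 and 4 and 4.65% and 4.23% in 2 and 3. All 4 negative bone samples stood at 24.2% to 30.2% of granulocytes. What sets replicates 1 and 4 apart was not tested.

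**Figure D2:**
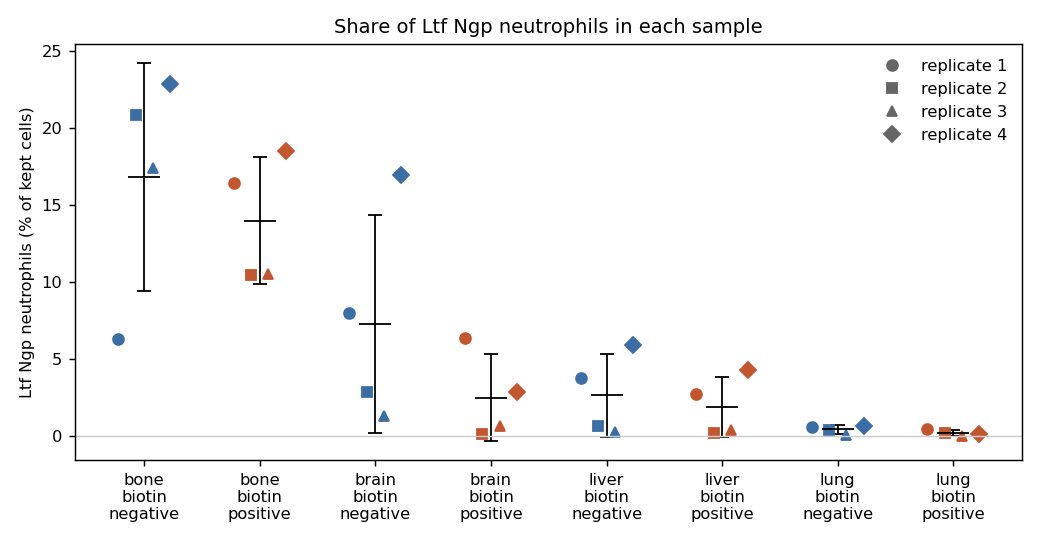
Share of Ltf Ngp neutrophils among kept cells (y axis, %) in each of 32 samples by tissue and sort; symbols give the replicate number, horizontal bars the mean and whiskers the SD (n = 4). Bone stands highest at 16.8% and 14.0%, lung lowest, and in brain and liver replicates 1 and 4 lie above 2 and 3.

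The biotin comparison asks whether tagged cells, those next to tumour cells, hold more or fewer of these neutrophils. Biotin positive bone held 14.0% ± 4.12 (n = 4 here and below). The positive sort of brain held 2.49% ± 2.82, of liver 1.89% ± 1.94 and of lung 0.193% ± 0.190. The mean was lower than in the negative sort in all 4 tissues, by 2.86, 4.78, 0.750 and 0.234 percentage points. None of the differences exceeded the spread between samples (two-sided exact permutation p = 0.486, 0.20, 0.714 and 0.229, adjusted over 4 tissues to 0.648, 0.457, 0.714 and 0.457, where 0.0286 is the smallest p possible). Within same-numbered pairs the positive sample was lower in 3 of 4 pairs in bone and liver and 4 of 4 in brain and lung, with exact sign-flip p of 0.50, 0.25, 0.125 and 0.125. With 4 pairs, 0.125 is the smallest p possible. In lung the direction turned when only granulocytes were the denominator, with 1.20% ± 1.22 positive and 1.00% ± 0.739 negative. In liver it turned on leaving out negative replicate 4, to 0.342 points higher in the positive sort.

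Expression within the cells was compared on UMIs summed per sample, in edgeR's quasi-likelihood test over 22 samples with at least 10 such cells and 7256 genes. The first question was whether Ltf Ngp neutrophils of untagged bone differ from those of untagged brain, liver and lung (4 samples against 4, 3 and 3). The genes called lower in bone included the immediate early genes Fos, Junb, Jund and Dusp1 and the inflammatory genes Cxcl2, Nfkbiz, Tnfaip3 and Ier3. At a Benjamini-Hochberg adjusted p under 0.05, 4 genes were higher in bone and 25 lower, together 0.4% of genes tested, with a median log2 fold change over all genes of 0.09. With the replicate number as a block the same edgeR test called 60 higher and 100 lower (2.21% of genes), and all 29 first calls remained. Fewer cells stood behind the other tissues, with 10 to 484 per sample against 186 to 801 in bone.

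Cxcl2, which encodes a chemokine that draws neutrophils through Cxcr2, changed most among the named genes. Its level in negative bone was 327, 301, 213 and 151 CPM in replicates 1 to 4, and in the 10 other negative samples it ran from 559 through a median of 1463 to 4952. No bone sample reached the lowest of the others. The log2 fold change was -2.76 (SE 0.41, edgeR adjusted p = 0.00135). Within the other tissues the mean level was 880 CPM in brain, 1975 in liver and 3132 in lung.

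Nfkbiz, an atypical inhibitor-of-NF-kB protein that shapes inflammatory transcription, had the smallest adjusted p. Bone samples stood at 144, 112, 60.7 and 73.9 CPM and the others at 152 to 467 (median 235). The bone range thus ended just under the lowest brain sample. The log2 fold change was -1.29 (SE 0.17, edgeR adjusted p = 0.000579).

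The immediate early genes Fos and Junb, subunits of the AP-1 factor, and Dusp1, a phosphatase that switches off MAP kinases, were lower in bone as well. Fos was at 269, 233, 109 and 113 CPM in bone and at 394 to 984 elsewhere (log2 fold change -1.79, SE 0.28, edgeR adjusted p = 0.00161). Dusp1 was at 107, 202, 65.1 and 95.4 CPM against 208 to 747 (-1.82, SE 0.31, adjusted p = 0.00495). Its bone replicate 2 came close to the lowest brain sample, brain replicate 4. Junb was at 294, 286, 120 and 208 CPM against 388 to 1331 (-1.51, SE 0.29, adjusted p = 0.0136).

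G0s2, an inhibitor of the lipase Pnpla2, stood at 728, 427, 283 and 303 CPM in bone and 757 to 3812 elsewhere (log2 fold change -1.96, SE 0.29, edgeR adjusted p = 0.00135). For each of these 6 genes no bone sample overlapped the others, as held for 0.221% of all genes tested, and bone was lower in 10 of 10 same-numbered pairs. The named genes were chosen for not overlapping, so that count is no separate result.

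**Figure D3:**
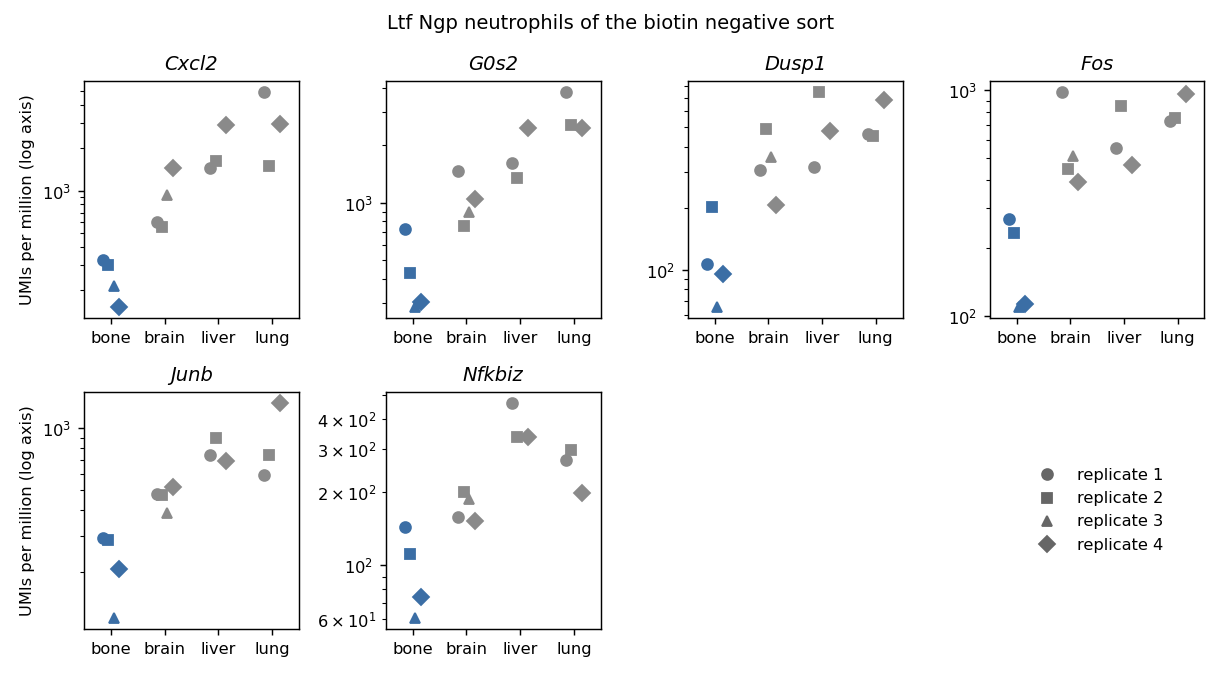
CPM (log axis) of 6 genes in Ltf Ngp neutrophils of the biotin negative sort, 1 point per sample with symbols for the replicate number, bone in blue and other tissues in grey. Every bone point lies below every other point, and Cxcl2 and G0s2 are highest on average in lung.

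The promoters of Cxcl2 and Dusp1 are shown as the ones among the named genes that held an NF-kB or CRE motif. The 150 bases before the RefSeq start (GRCm38.p6) are at chr5:90903749-90903898 on the plus strand for Cxcl2 and chr17:26508473-26508622 on the minus strand for Dusp1. Capitals mark an NF-kB motif (3 G, any 2 bases, 3 T and 2 C) in Cxcl2, and TGACGTCA, the cyclic AMP response element (CRE), in Dusp1, searched on both strands.
Cxcl2: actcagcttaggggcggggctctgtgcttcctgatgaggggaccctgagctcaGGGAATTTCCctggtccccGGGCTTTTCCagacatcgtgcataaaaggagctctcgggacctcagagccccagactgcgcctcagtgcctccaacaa
Dusp1: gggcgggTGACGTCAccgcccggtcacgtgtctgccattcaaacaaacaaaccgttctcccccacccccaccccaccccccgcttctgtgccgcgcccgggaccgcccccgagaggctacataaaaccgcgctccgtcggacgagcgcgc
The NF-kB matches began 97 and 78 bases before the start, and the CRE match 143 bases before it. Of the 32851 promoters of 300 bases, 1.63% held the NF-kB motif and 1.79% the CRE. Of the 6 named genes 5 were matched in the promoter table, and the other 3 of these (G0s2, Fos and Junb) held neither motif in the 300 bases. The AP-1 motif TGANTCA, also searched, is in 7.81% of promoters and in none of the 5. Whether a factor was bound was not measured.

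Gene lists put these genes in context, each count read against the 0.345% of all genes called lower and 0.0551% called higher in bone. The lists were drawn up with earlier results of these data known, so the counts are a description. Some genes are on more than 1 list. Among 18 tested genes of a stress and immediate early list, 4 fell in bone (Fos, Junb, Jund and Dusp1), none rose, and the list's median log2 fold change was -1.08. Among 19 tested inflammatory genes other than Il1b, 4 fell: Cxcl2, Nfkbiz, Tnfaip3 (the NF-kB brake A20) and Ier3, with a median of -0.76. The Il1b limit of the rule left out otherwise qualifying cells unevenly, 59 beside 1947 counted in negative bone and 96 beside 704 in negative brain. In negative liver it left out 30 beside 221, and in negative lung 19 beside 48. The part of this limit in the calls was not tested. Among 19 transcription factors of granulocytes, Cebpb, Fos and Junb fell (median -0.45; Fos and Junb are in the stress list too). The factor Cebpb, linked to emergency granulopoiesis, averaged 587 CPM in bone and 1417 elsewhere (log2 fold change -1.13, SE 0.26, edgeR adjusted p = 0.0472). The late maturation list had a single call, the cytokine Osm, at 52.8 to 108 CPM in bone and 101 to 639 elsewhere, where the groups overlapped in the lowest brain sample (log2 fold change -2.14, SE 0.33, edgeR adjusted p = 0.0016).

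With the replicate block the same edgeR test called 7 of 18 stress genes, 9 of 19 inflammatory genes and 7 of 19 transcription factors lower in bone, against 1.38% of all genes. The added calls included Egr1, Jun, Klf2, Zfp36, Cxcl3, Ccl3, Tnf, Plaur and Clec4e.

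Calls in the specific granule list depended on the block. None of 23 tested genes on the list passed without it (median log2 fold change 0.21). With it 5 genes on the list rose in bone, namely Camp, Lcn2, Chil3, Cybb and Tmem216, against 0.827% of all genes called higher. Tmem216 is counted only as a member of the list as drawn up and is not taken here as a granule gene. It was low, with a median of 28.3 CPM in the other 10 samples. Camp stood at 29832, 20556, 23519 and 25368 CPM in bone replicates 1 to 4 and at 9162 to 27124 (median 16197) in the other 10 samples, so the groups overlapped. Its log2 fold change was 0.71 (SE 0.18, edgeR adjusted p = 0.0966) without the block and 0.75 (SE 0.11, adjusted p = 7.92e-05) with it.

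Of 10 azurophil granule genes 8 had a positive log2 fold change without the block (median 0.36) and 4 with it (median -0.06), beside a median of 0.09 over all genes tested without the block. Srgn, the proteoglycan that packs granule proteases, fell in bone in both fits. It stood at 906, 757, 498 and 378 CPM in bone and 843 to 3050 elsewhere, where bone replicate 1 overlapped the others (log2 fold change -1.10, SE 0.21, edgeR adjusted p = 0.0136). With the block the protease-activating cathepsin Ctsc also fell and the protease inhibitor Serpinb1a rose.

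The factors Cebpe (log2 fold change 0.53 with the block, SE 0.14, edgeR adjusted p = 0.0375) and Cebpd (0.75, SE 0.16, adjusted p = 0.00516) and the marrow retention receptor Cxcr4 (0.66, SE 0.15, adjusted p = 0.00959) were also called higher in bone only in that fit. Of the 13 trafficking genes that include Cxcr4, the chemerin-binding receptor Ccrl2 fell in both fits (-2.24, SE 0.46, edgeR adjusted p = 0.0262 without the block), and the list's median was -0.07. Of 8 NADPH oxidase genes, Cybb, its catalytic subunit, and Ncf1 rose with the block, and none was called without it.

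With the block Btg2, Clec4e and Trem1 of the late maturation list fell in bone beside Osm (4 of 18), and so did the pattern receptors Cd14 and Tlr2 of the secretory vesicle list (2 of 12), which had no call without it. The fit with the block also called Cks2 (cell cycle), Wfdc17 (S100 and alarmin) and Mcl1 (apoptosis), each lower. The gelatinase granule list (14 genes) had a median of 0.10 without a call, and with the block Tnfaip6 alone fell. Interferon response genes (16 tested, median 0.25), glycolysis and hypoxia genes (16, median 0.04) and complement and adhesion receptors (9, median 0.12) had no call in either fit. The late marker Retnlg did not pass (log2 fold change -0.09, SE 0.25, edgeR adjusted p = 0.963), nor did Cd177 (0.26, SE 0.13, adjusted p = 0.57).

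**Figure D4:**
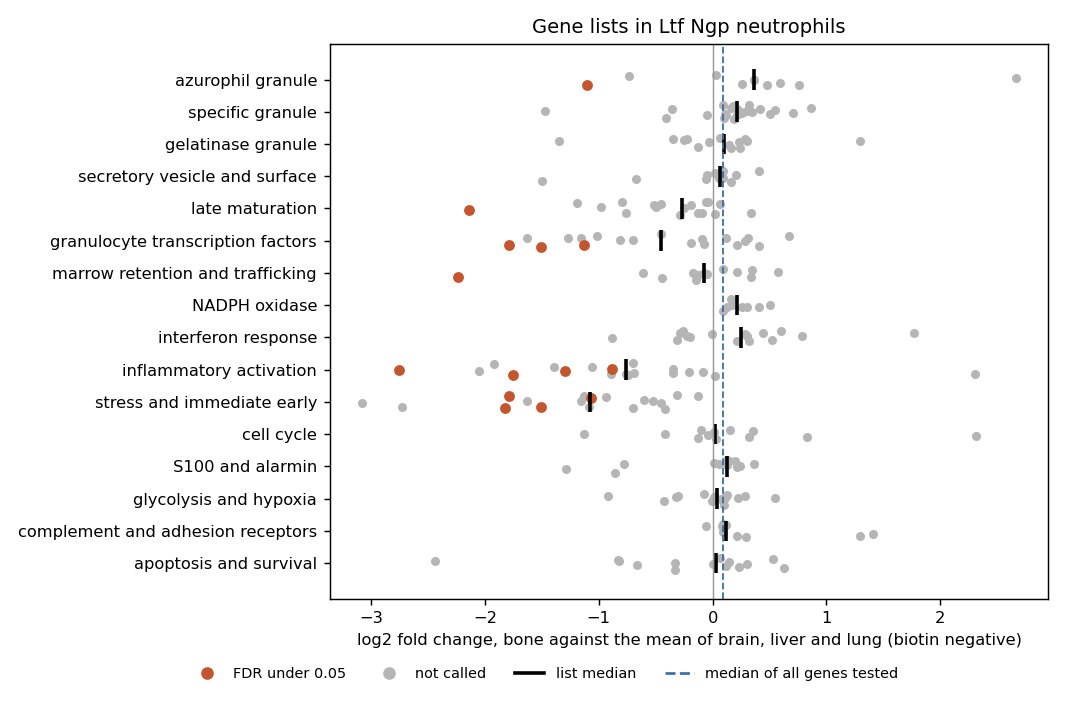
Log2 fold change of bone against the mean of brain, liver and lung (biotin negative) in Ltf Ngp neutrophils for each tested gene of 16 lists; orange points passed an adjusted p under 0.05 without the replicate block, black bars are list medians and the dashed line is the median of all genes (0.09). The stress list (-1.08) and the inflammatory list (-0.76) lie furthest below that line.

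The 6 named genes were not low in bone in these neutrophils alone. In the Retnlg class their mean over the other tissues was 3.71 to 9.43 times the bone mean, and in cells that were not granulocytes 2.5 to 5.26 times, against 2.67 to 7.60 times in Ltf Ngp neutrophils. These are not like measures, because the Retnlg class had no limit on Il1b, Mki67 or Top2a. The non-granulocytes pooled every kept cell under the S100a8 and S100a9 limit, with no matching of cell types between tissues. Bone was lower for 6 of 6 genes in each class. The groups did not overlap for 4 genes in the Retnlg class and 0 in the non-granulocytes. The share of all genes without overlap was not computed in either class, so these counts have no background and nothing is read from them. Differences between classes were not tested.

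The second question was whether tagged and untagged Ltf Ngp neutrophils differ within bone, where both sorts had 4 samples. At this depth no difference was detectable for any gene in the edgeR test (0% of 7256 called), against 68 genes at p under 0.05 before adjustment. DESeq2 also gave 0 calls. The adjusted p was 1 for each gene. Camp stood at 20896 to 31304 CPM in positive and 20556 to 29832 in negative samples. Cxcl2 stood at 164 to 434 against 151 to 327 (log2 fold change 0.43, SE 0.42) and Nfkbiz at 132 to 150 against 60.7 to 144 (0.52, SE 0.19), and neither passed. None of the 16 lists had a call, and their medians lay between -0.29 (interferon response) and 0.16 (stress and immediate early). With the replicate block none had a call either, and the interferon response median was -0.54, with 15 of 16 genes lower in the positive sort against 13 of 16 without the block. The S100 and alarmin median was -0.18 (11 of 12 lower) without the block and -0.19 (12 of 12 lower) with it. With the replicate block 2 genes were called (0.0276%), Ctla2a higher and Igkv5-43 lower in the positive sort. Ctla2a stood at 78.2 CPM in positive replicate 2 and at 0.4 to 5.1 in the other 7 bone samples, so a single library carried it.

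In brain, 2 positive samples (replicates 1 and 4) were set against 4 negative ones, and edgeR called 1 gene (0.0138%), the endothelial receptor gene Flt1. Its level was 147 CPM in positive replicate 1, 0 in positive replicate 4 and 0 to 2.3 in the negative samples, so the fitted difference of 7.31 on the log2 scale (SE 1.11, adjusted p = 0.00766 in edgeR) rested on that library. Without positive replicate 1 the positive arm was 1 sample at 0 CPM, and the fitted difference was -2.76 (edgeR adjusted p = 0.993) with the spread taken from the other groups, so no direction was read from it. The level in the single positive lung sample was 112 CPM. With the replicate block, which rests on 2 same-numbered pairs here, 15 genes were called, all higher (0.207%). The endothelial markers Pecam1, Cdh5 and Kdr summed to 34.3 CPM in positive replicate 1, 0 in positive replicate 4 and 3.94 to 14.4 in the negative samples. Their part in the result was not tested. The biotin difference in bone set against that in brain gave 0 calls (0%; 217 genes at an unadjusted p under 0.05, and 0 in DESeq2).

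Liver and lung each had 1 positive sample with at least 10 of the cells, and were tested only by assuming that this sample varies like the other groups. That fit, added after the data had been seen, called 0 genes in liver and 22 in lung, all higher. With 1 library a tissue (33 cells in liver, 14 in lung) these calls compare that library with the negative samples, and the sort and the library cannot be told apart. The lung calls included Ear1, Ear2, Lpl and Abcg1. The alveolar macrophage markers Ear1, Plet1, Marco and Fabp1 summed to 894 CPM in that lung library, with none at 0, and to 0 to 37.1 in negative lung, where 2 of 3 samples had all 4 at 0. Chil3 of the same list was left out of this sum because the neutrophils make it.

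Macrophage markers were summed in both sorts, with no test. The 6 macrophage markers summed to 577 CPM in positive liver (1 sample, none at 0) and 370 in positive lung (1 sample, 5 of 6 at 0), against 8.19 to 175 in negative liver and 0 to 55.7 in negative lung. In bone they ran from 5.46 to 176 in positive and 5.44 to 92.0 in negative samples, and in brain from 3.8 to 203 and 4.10 to 70.5, so the sorts overlapped in both tissues. Their part in the biotin comparisons was not tested. The 5 monocyte markers summed to 21.1 to 46.0 CPM in negative bone, 16.2 to 280 in negative brain, 26.9 to 106 in negative liver and 18 to 49.9 in negative lung, and their part in the bone against other tissues calls was not tested. When only cells without a UMI of other lineages were kept, edgeR gave 13 calls in bone against brain and liver, all lower, of which 9 were among the first 29. No lung sample then had 10 of the cells, 3471 genes were tested, and the negative bone cells fell from 1947 to 803. The loss differed by replicate number, with 186 cells becoming 39 in negative bone replicate 1 and 425 becoming 296 in replicate 3. With Cd3d, whose level also differs by replicate number, left uncounted (chosen after seeing the data), 1278 negative bone cells stayed, 132 of them in replicate 1 and 310 in replicate 3. Lung was then measured in 2 samples, and there were 23 calls, 3 higher and 20 lower, with 20 among the first 29.

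Among lymphocyte markers, the T cell receptor complex gene Cd3d stood apart from its partners. It ran from 132 to 189 CPM in the 8 samples of replicate 1 and 83.0 to 114 in the 6 of replicate 4, against 0 to 21.6 in replicate 2 and 0 to 8.6 in replicate 3. Cd3e, which is needed for the same receptor, was at 0 to 5.8 CPM in all 22 samples. Outside bone the positive sort had no sample of replicates 2 or 3 with at least 10 of the cells, and the negative sort of liver and lung had none of replicate 3. The Retnlg class gave the same order, with medians of 99.2 and 33.6 CPM in replicates 1 and 4 and 12.2 and 4.3 in replicates 2 and 3. Ranges overlapped there, with 15.5 to 45.8 CPM in replicate 4 against 1.9 to 27.1 in replicate 2 and 0.5 to 17.2 in replicate 3. In cells that were not granulocytes the medians were 58.2, 49.3, 44.1 and 53.3 CPM in replicates 1 to 4, with overlapping ranges.

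**Figure D5:**
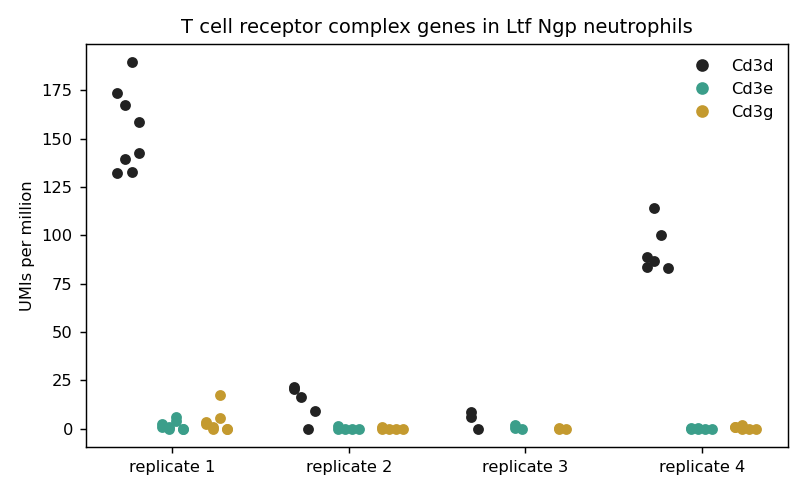
CPM of Cd3d, Cd3e and Cd3g (y axis) in Ltf Ngp neutrophils, 1 point per sample, by replicate number across tissues and sorts. Cd3d is at 132 to 189 in replicate 1 and 83.0 to 114 in replicate 4 and at most 21.6 in replicates 2 and 3, while Cd3e and Cd3g stay under 20.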

How the data were processed

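Per the file headers, the authors made the UMI count matrices with Cell Ranger 6.1.2. They were deposited per sample, already separated by CellPlex tag. Per the submitters' processing notes the build was mm10; the annotation is not given in the sources used here. The pooled matrix of another injection was not used. Cells, lists and comparators were chosen with earlier results of these data known. No doublet caller was run; leaving out the 5% of cells with most UMIs per sample was an alternative. Counts of the chosen cells were summed per sample (at least 10 cells), filtered with filterByExpr, scaled by TMM and fitted with 1 mean per group in edgeR 4.0.16 (R 4.3.3), with Benjamini-Hochberg adjustment over all genes, and tested on simulated data, where the kept draw gave more false calls than the nominal share in the bone against other tissues comparison. DESeq2 1.42.0 was an alternative. Shares were compared by exact permutation over samples (scipy 1.17.1). Named genes were the 10 called genes per direction with the largest change, a mean of at least 50 CPM and groups that do not overlap, leaving out the genes of the rule; 1 gene that met it is not reported here.

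Same-numbered samples deviated together: the correlation of their deviations from group means was 0.05 to 0.52 (median 0.16, 43 pairs, 35 over 0.1), against a median of -0.06 over 122 other pairs. Deviations from a group mean cancel within that group, so the other pairs are no separate baseline. Every same-numbered pair of positive with negative bone, or of negative bone with another negative tissue, was over 0.1. The numbers were therefore taken to pair those samples, and blocked values are given where they change a call. In the bone against brain biotin difference, positive bone and negative brain of replicate 3 had a correlation of 0.08.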

Additional observations from a re-analysis of the deposited data

Results flagged for a closer look

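A lone extreme value was found among 32 groups of samples tested, where chance gives about 1 in 20. Nfkbiz stood at 132 CPM in positive bone replicate 3, below the 148 to 150 CPM of the other 3 samples. The gene did not pass the biotin comparison in bone.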

How the results depend on the processing

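Bone against the other tissues gave 29 calls, and the count was 13 with cells free of other lineages' UMIs, 65 in DESeq2, 9 with at least 20 cells per sample, 131 without the low-count filter (53 of them higher), 160 with the replicate block (60 higher), 6 with the rule applied to thinned cells, 49 without brain and 10 without lung. Lung had too few samples to enter with at least 20 cells per sample, with thinned cells or with cells free of other lineages' UMIs, so these 3 compare bone with brain and liver. Leaving out 1 sample gave 6 to 42 calls, with 6 without bone negative replicate 3, 12 without bone negative replicate 4 and 15 without lung negative replicate 1. The 6 named genes kept their direction under all 26 alternatives. Cxcl2 kept its call under 25, G0s2 24, Dusp1 and Fos 23, Junb 21 and Nfkbiz 26. Adjusted p reached 0.0648 for Cxcl2 and 0.192 for Junb. The biotin comparison in bone gave 21 calls unfiltered, 2 with the replicate block and 0 without any 1 sample. In brain, 1 call became 0 with the 2 groups alone, with thinned cells or with cells free of other lineages' UMIs other than Cd3d, 5 without the deepest 5% of cells, 15 with the replicate block, 77 unfiltered, and 0 to 27 on leaving out 1 sample. Flt1 ranged from -2.76, without brain positive replicate 1, to 8.21 on leaving out 1 sample, where a lone positive sample takes the spread of the other groups. The bone against brain difference gave 8 calls unfiltered and 0 without any 1 sample. Shares in positive minus negative samples reversed in lung among granulocytes (0.198 points) and in liver without negative replicate 4 (0.342, range -1.54 to 0.342). On leaving out 1 sample the other share differences ran from -6.38 to -0.853 in bone, -6.78 to -1.56 in brain and -0.361 to -0.160 in lung, and bone exceeded the other negative tissues by 11.4 to 16.9 points. That difference of 13.4 points had exact p = 0.125 by sign flips over the replicate block and 0.00781 permuted within numbers. Counts unfiltered or unblocked differ in genes tested or in residual spread; other causes were not tested. Brain could not be fitted with at least 20 cells per sample or with cells free of all other lineages' UMIs. Depth limits the 10 negative samples outside bone, some with 10 to 20 cells, and the positive samples of liver and lung.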
